A study of Danio rerio with 6 samples.

Results

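The genes described here encode lipoprotein components, yolk precursors and plasma proteins of zebrafish. They were taken by name from the gene table of a whole-embryo RNA-seq comparison. Members were genes whose names start with apoa, apob, apoc, apoe, apoh, apom, vtg, serpina, serpinc, serpind or fetub. Names that start with apobec or apopt were left out. Added by full name were *ahsg1*, *tfa*, *ttr*, *rbp4*, *hpx*, *cp*, *fga*, *fgb*, *fgg*, *f2*, *plg*, *ambp*, *fabp1b.1*, *fabp10a* and *mtp*. The names matched 45 of the 31953 genes in the table, and the rule uses names only, although it was set with earlier results of these data known. One of them, *apoa1bp*, encodes a protein that binds apolipoprotein A-I and is no apolipoprotein itself. A match on names in either case would have added 4 further genes, *APOH*, *FETUB (2 of 2)*, *SERPINA10 (2 of 2)* and *HPX (2 of 2)*, which were not counted as members.

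The study asked how loss of the *dancr* locus alters gene expression in the embryo. *dancr* del F0 crispants were injected into the yolk at the single-cell stage with Cas9 and a pool of guide RNAs that together remove the *dancr* promoter, and mock control embryos received the same mixture without the *dancr* guides. Crispants are mosaic for the deletion, and those sequenced were embryos of the phenotypic classes I and II with axial defects, with about 30 embryos in each group at 30 hours post fertilisation (hpf). PolyA+ RNA of whole embryos was sequenced in 3 crispant and 3 mock control libraries. By the study's methods the fish were wild type AB and the 3 libraries of a group were biological replicates; whether these came from separate clutches was not given in the sources used here, so a p-value measures the spread between these libraries.

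Before the liver is functional, the zebrafish embryo feeds from its yolk through the yolk syncytial layer, a nucleated layer at the yolk surface that takes up yolk lipid, packs it onto apolipoprotein B and secretes lipoproteins into the circulation. Microsomal triglyceride transfer protein loads lipid onto apolipoprotein B, the smaller apolipoproteins A, C and E ride on the particle surface and steer its enzymes and receptors, and apolipoprotein M carries small lipids. Vitellogenins, the precursors of the yolk itself, are made in the liver of the mother. The other plasma proteins (transferrin, retinol binding protein, fibrinogen, prothrombin, plasminogen, serpins and fetuins) are products of the liver and, in the young embryo, in part of the yolk syncytial layer.

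Each library held 33841805 to 40515803 counts. The library of mock control 3 stood apart from the other 5: the 100 most abundant genes took 33.4% of its counts, against 24.2% to 26.9% elsewhere, its TMM scaling factor was 0.749 against 0.988 to 1.14, and its short genes read high. Results that rest on that library are therefore given with and without it. The small RNA genes of the *dancr* locus, *snora26* and *snora27*, were read from 1 row of each name, without a check that the row lies at that locus. For *snora26* it was the first row of that name with any counts. The *snora26* row had 0, 7 and 4 counts in the crispants and 22, 8 and 16 counts in mock control. The *snora27* row had 1, 0 and 0 counts in the crispants and 0 counts in each mock control library. Small RNAs are poorly caught by a polyA+ protocol, so these counts check the deletion only weakly, and not at all if the rows lie elsewhere.

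Of the 45 members, 37 passed the filter on low counts, and none of the 37 passed the edgeR quasi-likelihood test (threshold: p adjusted by Benjamini-Hochberg over 20812 genes no higher than 0.05, with a change of 1 or more on the log2 scale). The same test called 0% of all genes. DESeq2 called 160 genes, 0.769% of those tested, and 3 of them were members, *apobb.2*, *apoa4b.3* and *apom*, each lower in the crispants. Voom with sample quality weights called 1.56% of all genes and the same 3 members, and edgeR with each library's trend on gene length removed called 0.00961% of all genes and 0 members. At an unadjusted edgeR p under 0.05 there were 7 members, all lower in the crispants, where 5.49% of all genes passed in either direction, 2.47% lower and 3.01% higher. Among the 37 members, 7 (*apobb.2*, *apoa4b.3*, *apom*, *plg*, *rbp4*, *apoc2* and *apoa4b.2*) had every crispant library below every mock control library, where 5.44% of all genes did, and 1 of the 37 (*mtp*) had every crispant library above, where 6.5% of all genes did. The log2 fold changes of the 37 members ran from −2.28 to 0.43 with a median of −0.44, beside a median of −0.04 over all genes tested, and 30 of them were below 0, where 54.5% of all genes were. Leaving out mock control 3 changed this: 22 of 38 members (57.9%) were below 0, where 48.8% of all genes were. The members' median was −0.04, and all genes had a median of 0.01. Of the 38, the groups then did not overlap in 8 that were lower (21.1%) and 4 that were higher (10.5%). Over all genes these shares were 14.3% and 15.1%. Little of the shift of the list as a whole was thus left without that library, while a few members, *apobb.2* first among them, were lower with or without it. Since whole embryos were sequenced, fewer cells that make a transcript and less of it per cell cannot be told apart.

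**Figure D1:**
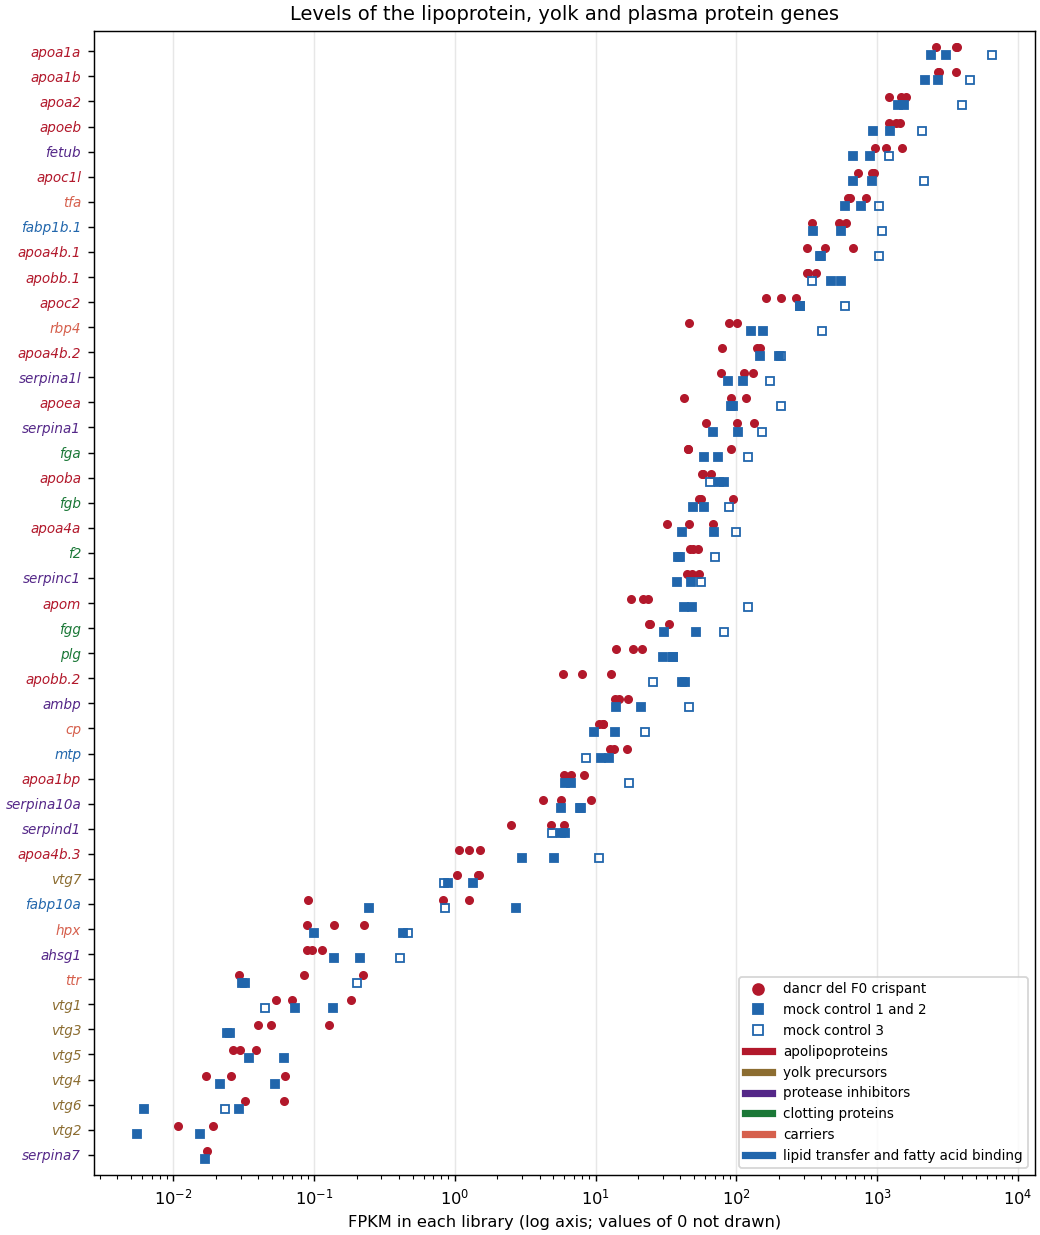
FPKM of each member in each of the 6 libraries on a log axis, ordered by mean level, with gene names coloured by role; circles are the 3 crispants, filled squares mock controls 1 and 2, and open squares mock control 3. Levels span from *apoa1a*, with a mean FPKM of 3659, to genes listed at or near 0 such as *ttr*, with a mean FPKM of 0.100, and in most genes the 2 groups overlap.

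Levels between genes were compared per length, as FPKM (fragment counts scaled to gene length and library size). The main surface apolipoproteins led the list, with a mean over the 6 libraries of 3659 FPKM for *apoa1a*, 3090 FPKM for *apoa1b*, 1870 FPKM for *apoa2* and 1373 FPKM for *apoeb*. *fetub* followed at 1060 FPKM, *apoc1l* at 1053 FPKM and *tfa* at 746 FPKM. Among the apolipoprotein B genes, *apobb.1* dominated at 395 FPKM, against 22.7 FPKM for *apobb.2*. *mtp* had 12.4 FPKM. Of the vitellogenins, the highest was *vtg7* at 1.17 FPKM. Near the bottom were *fabp10a*, the liver fatty acid binding protein, at 0.997 FPKM and *ttr*, transthyretin, at 0.100 FPKM. The members *tfa* and *cp*, which are read below as liver markers beside *fabp10a*, had 746 and 13.2 FPKM.

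Together the 45 members took 3.16%, 3.25% and 3.13% of the summed FPKM in crispants 1 to 3, and 2.70%, 3.00% and 3.53% in mock controls 1 to 3. The means were 3.18% ± 0.0634 in the crispants and 3.08% ± 0.422 in mock control (SD, n = 3 each; two-sided exact permutation test, p = 0.7, where 3 against 3 libraries cannot go below 0.1). The crispant libraries lay within the spread of the mock control libraries, so no difference in the total was detectable. The 16 genes with apolipoprotein names, *apoa1bp* among them, made up most of it, at 2.50%, 2.55% and 2.50% in the crispants and 2.17%, 2.39% and 2.93% in mock control.

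In the apolipoprotein group, *apoa1bp* included, every member had a lower fitted value in the crispants with all 6 libraries. All 16 passed the filter, 0 had a log2 fold change above 0, and the median was −0.53. In 5 the groups did not overlap, each lower in the crispants, where 5.44% of all genes did so with all 6 libraries. When mock control 3 was left out, 6 of the 16 were above 0 and 10 below, with a median of −0.15. The groups that did not overlap then numbered 6 lower and 1 higher, where 14.3% and 15.1% of all genes did so with 3 against 2 libraries.

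The member with the smallest p was *apobb.2* (ENSDARG00000075016, chromosome 20, 53634248 to 53664835, plus strand, GRCz10), which encodes an apolipoprotein B, the structural protein of the lipoprotein particle. *apobb.2* had 48.5, 107 and 67.1 CPM (counts scaled to a common library size after TMM) in the crispants, against 359, 338 and 213 CPM in mock control. No crispant library reached the lowest mock control library, and the mock control mean of 303 ± 78.9 CPM was 4.09 times the crispant mean of 74.1 ± 29.8 CPM (SD, n = 3 each). The log2 fold change was −2.03 (SE 0.34) with an edgeR adjusted p of 0.258, which misses the threshold. Without mock control 3, *apobb.2* was the only member called by edgeR, at −2.22 (SE 0.28, adjusted p = 0.0439), in a fit that called 0.0935% of 21388 genes, 0.00468% as lower, so that *apobb.2* was its only call in that direction. DESeq2 called it with all 6 libraries (adjusted p = 4.98e-05) and in 6 of 6 fits with 1 library left out.

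The other apolipoprotein B genes differed less. *apobb.1* (ENSDARG00000022767) had 3714, 3690 and 4302 CPM in the crispants and 6427, 5396 and 4066 CPM in mock control, and mock control 3 lay between the crispants. Its log2 fold change was −0.44 (SE 0.31, edgeR adjusted p = 0.999), or −0.58 without mock control 3 (edgeR adjusted p = 0.316). *apoba* had a log2 fold change of −0.30 (SE 0.23). Of the FPKM of the apolipoprotein B genes, *apobb.2* accounted for 1.53%, 3.32% and 1.82% in the crispants, against 6.39%, 7.03% and 5.83% in mock control. The share, which compares genes within a library, was 2.22% ± 0.959 in the crispants and 6.41% ± 0.599 in mock control, a difference of −4.19 percentage points (SD, n = 3 each; two-sided exact permutation test, p = 0.1, the smallest that 3 against 3 allows). This share and the 3 other within-family shares below were chosen after the values were seen, and each of the 4 had p = 0.1 by the exact permutation test and 0.1 after Benjamini-Hochberg adjustment.

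**Figure D2:**
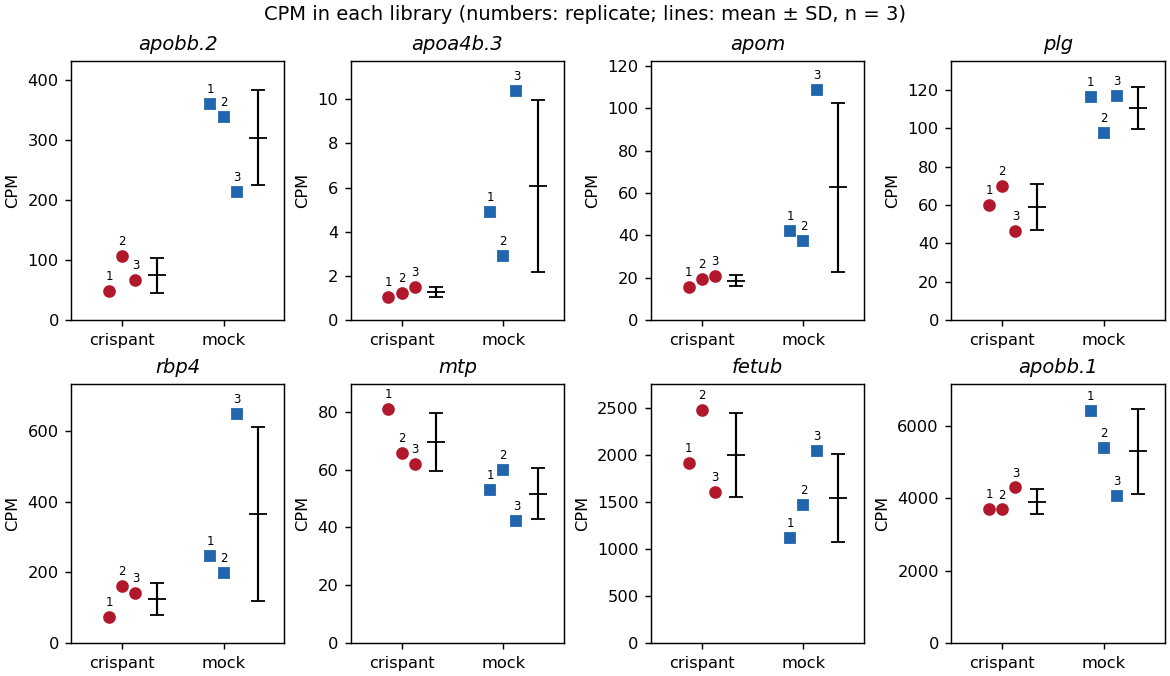
CPM of selected members in each library, with replicate numbers beside the points and lines at the mean ± SD of the 3 crispants (left) and 3 mock controls (right). In *apobb.2* the crispants lie between 48.5 and 107 CPM and the mock controls between 213 and 359 CPM, while in *mtp* the crispants, at 62.1 to 81.0 CPM, lie above the mock controls, at 42.3 to 59.9 CPM.

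*apom* (ENSDARG00000076838, chromosome 2, 42379323 to 42385143, minus strand) encodes apolipoprotein M, which carries sphingosine 1-phosphate on high density lipoprotein. It had 15.7, 19.2 and 20.7 CPM in the crispants and 42.2, 37.2 and 109 CPM in mock control. Every crispant was below every mock control library, although mock control 3 stood far above the other 2. The means were 18.6 ± 2.62 CPM in the crispants and 62.7 ± 39.9 CPM in mock control (SD, n = 3 each), and edgeR gave a log2 fold change of −1.76 (SE 0.41, edgeR adjusted p = 0.489). Without mock control 3 it was −1.08 (edgeR adjusted p = 0.0919), so that 1 library set a large part of its size. DESeq2 called *apom* with all libraries (adjusted p = 0.0149) and in 3 of 6 fits with 1 library left out, those that left out a mock control library.

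*apoa4b.3* (ENSDARG00000094929, chromosome 16, 24006578 to 24007836, plus strand) is one of a cluster of apolipoprotein A-IV genes, whose products are surface proteins of lipid-rich particles. It had 1.03, 1.22 and 1.48 CPM in the crispants and 4.90, 2.89 and 10.4 CPM in mock control, from 38, 49 and 61 counts in the crispants and 177, 111 and 297 counts in mock control. The groups did not overlap. The log2 fold change was −2.28 (SE 0.52, edgeR adjusted p = 0.489), and −1.62 without mock control 3 (edgeR adjusted p = 0.18). DESeq2 called *apoa4b.3* (adjusted p = 0.00453), and did so in 4 of 6 fits with 1 library left out, not in those without crispant 1 or crispant 2. The gene lies inside the interval annotated for *apoa4b.2* (23999187 to 24033538) on the same strand, which also overlaps *apoa4b.1*, so reads may have been split among them and the values of the 3 genes are uncertain.

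The share of *apoa4b.3* in the FPKM of the apolipoprotein A-IV genes was 0.218%, 0.197% and 0.191% in the crispants, against 0.864%, 0.449% and 0.785% in mock control. Its neighbours on chromosome 16, which also hold *apoeb*, *apoc1l*, *apoa2* and *apoc2* within 24045712 to 24076129, gave smaller values. *apoa4b.2* had 190, 199 and 108 CPM in the crispants and 199, 270 and 286 CPM in mock control, a gap between groups of less than 1 CPM, with a log2 fold change of −0.61 (SE 0.28, edgeR adjusted p = 0.962). *apoc2*, the activator of lipoprotein lipase, had 230, 291 and 182 CPM in the crispants against 310, 310 and 655 CPM in mock control. It gave −0.86 (SE 0.35, edgeR adjusted p = 0.862), and −0.39 without mock control 3. *apoa4b.2* and *apoc2* were picked once their values were known, because their groups did not overlap.

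The abundant surface apolipoproteins did not differ beyond the spread of the libraries. *apoa1a* (ENSDARG00000012076), the main protein of high density lipoprotein, had 3634, 3598 and 2596 CPM in the crispants and 2389, 3012 and 6510 CPM in mock control. Its copy *apoa1b* (ENSDARG00000101324) had 3241, 4329 and 3248 CPM in the crispants and 2587, 3207 and 5519 CPM in mock control. *apoeb* (ENSDARG00000040295), the ligand of the lipoprotein receptors, had 2593, 3093 and 2910 CPM in the crispants and 2003, 2624 and 4497 CPM in mock control. In each of the 3, mock control 3 was the highest library and mock control 1 the lowest. The log2 fold changes were −0.28 for *apoa1a*, −0.06 for *apoa1b* and −0.09 for *apoeb* with all libraries. They were 0.29, 0.33 and 0.32 in the same order without mock control 3, so that their direction changed without that library. The value of *apoa1b* was near 0 and also turned above 0 without crispant 1 (0.00621) and without crispant 3 (0.00467). The remaining apolipoproteins (*apoa2*, *apoc1l*, *apoa4b.1*, *apoea* and *apoa4a*) and *apoa1bp* were between −0.71 and −0.37 with all libraries. Leaving out mock control 3 brought *apoa2* to −0.03, *apoea* to −0.13 and *apoa4a* to −0.16, and turned *apoc1l* to 0.14, *apoa4b.1* to 0.28 and *apoa1bp* to 0.15.

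**Figure D3:**
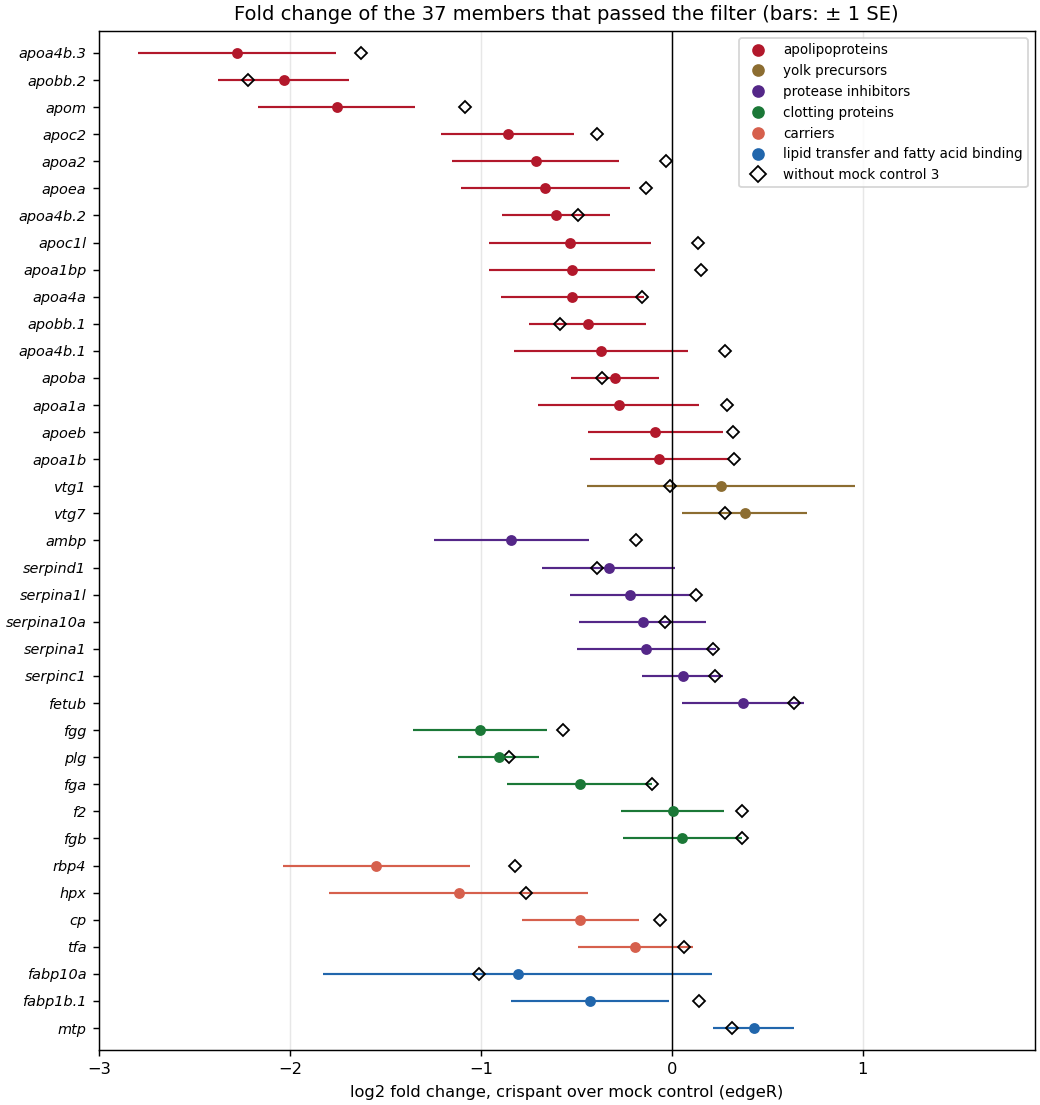
Log2 fold change, crispant over mock control, of the 37 members that passed the filter, with bars of ± 1 SE, coloured by role; open diamonds give the value without mock control 3. With all libraries 30 of the 37 lie below 0, and for many the diamond is near or above 0, while *apobb.2* keeps a value of −2.22.

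Yolk precursor transcripts were scarce. *vtg7* (ENSDARG00000092419) had 7.38, 7.57 and 5.29 CPM in the crispants and 4.49, 6.73 and 4.31 CPM in mock control, with a log2 fold change of 0.38 (SE 0.33). *vtg1* had 12, 10 and 35 counts in the crispants and 23, 13 and 6 counts in mock control, at 0.26 (SE 0.70). Neither differed beyond the spread. The other vitellogenins, *vtg2* to *vtg6*, did not pass the filter and had between 0 and 23 counts per library. Of these, *vtg3* had 8, 7 and 23 counts in the crispants and 4, 4 and 0 counts in mock control, where a count of 0 allows up to 3 counts, and it was not tested, although every crispant was above every mock control library. The annotated interval of *vtg7* on chromosome 22 (24703538 to 24830426, minus strand) overlaps those of *vtg1*, *vtg4*, *vtg5* and *vtg6*, which are similar genes, so reads may have been split among them.

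Among the protease inhibitors and fetuins, 7 of 9 members passed the filter, 2 were above 0 and 5 below, and the median log2 fold change was −0.15. With that library left out, 4 were above 0 and 3 below, with a median of 0.13. *fetub* (ENSDARG00000053973, chromosome 22, 37934447 to 37944777, plus strand), a fetuin that inhibits metalloproteases, was the most abundant. It had 1917, 2481 and 1606 CPM in the crispants and 1118, 1469 and 2046 CPM in mock control. In edgeR its log2 fold change was 0.37 (SE 0.32, edgeR adjusted p = 0.999), and 0.64 without mock control 3 (edgeR adjusted p = 0.354).

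As a share of summed FPKM, the 9 inhibitors and fetuins took 0.320%, 0.365% and 0.292% in the crispants and 0.210%, 0.251% and 0.219% in mock control. Every crispant was above every mock control library, at 0.326% ± 0.0369 against 0.227% ± 0.0218 (SD, n = 3 each; two-sided exact permutation test, p = 0.1, the smallest possible). *fetub* made up 80.1% to 81.8% of it in the crispants and 73.3% to 75.5% in mock control. The summed FPKM itself overlapped, at 1438, 1818 and 1178 in the crispants and 899, 1173 and 1650 in mock control. As a share of counts the groups were again apart, at 0.267% ± 0.0357 against 0.196% ± 0.0266 (SD, n = 3 each). The same exact permutation test was run on the FPKM share of every role group. Among the others only the yolk precursors reached its smallest possible value, with the crispants higher. Their groups nearly touched, at 0.000330% in crispant 2 and 0.000328% in mock control 2, from 332 and 295 counts.

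The serpins overlapped between groups. *serpina1* and *serpina1l* encode alpha-1-antitrypsins, inhibitors of elastase, and are similar neighbours on chromosome 20 whose reads may have been split. *serpina1* had 168, 222 and 102 CPM in the crispants and 114, 171 and 256 CPM in mock control (log2 fold change −0.13, or 0.22 without mock control 3), and *serpina1l* had 188, 221 and 131 CPM in the crispants and 146, 187 and 296 CPM in mock control (−0.22, or 0.13 without mock control 3). *serpinc1*, which encodes antithrombin, had 119, 109 and 134 CPM in the crispants and 92.2, 116 and 139 CPM in mock control, a log2 fold change of 0.06 (SE 0.21). The other tested members of the group, *ambp*, *serpina10a* and *serpind1*, had log2 fold changes between −0.84 and −0.15, or −0.39 and −0.04 without mock control 3. Of the untested members, *ahsg1* had 6, 6 and 8 counts in the crispants and 13, 9 and 20 counts in mock control, and *serpina7* had 0 or 1 count in each library.

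A second fetuin-B gene, *FETUB (2 of 2)*, was not a member as the names were matched and is given because its values were seen to go the other way from *fetub*. It lies on the same chromosome (38276174 to 38287021, plus strand) and overlaps a gene on the opposite strand. *FETUB (2 of 2)* had 1.09, 3.60 and 4.15 CPM in the crispants and 14.9, 6.65 and 15.2 CPM in mock control, groups that did not overlap. Its log2 fold change was −2.05 (SE 0.55, edgeR adjusted p = 0.588; DESeq2 adjusted p = 0.0259). It supplied 0.0647%, 0.166% and 0.295% of the FPKM of the pair in the crispants, against 1.5%, 0.515% and 0.842% in mock control.

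The 5 clotting and fibrinolysis genes all passed the filter, with a median log2 fold change of −0.48, or −0.10 without mock control 3. With all 6 libraries the groups did not overlap in 1 of the 5, lower in the crispants, where 5.44% of all genes did so. The gene whose groups did not overlap was *plg* (ENSDARG00000023111, chromosome 20, 42791378 to 42805774, minus strand), plasminogen, the zymogen of the protease that dissolves fibrin. It had 60.2, 70.2 and 46.4 CPM in the crispants and 117, 97.8 and 117 CPM in mock control, and mock control 3 lay with the other mock control libraries. The means were 58.9 ± 12.0 CPM in the crispants and 110 ± 11.0 CPM in mock control (SD, n = 3 each), and the mock control mean was 1.88 times the crispant mean. Its log2 fold change of −0.91 (SE 0.21) had an edgeR adjusted p of 0.489 and a DESeq2 adjusted p of 0.0543, and was −0.85 without mock control 3 (edgeR adjusted p = 0.179). With all libraries its size was below the minimum of 1. *plg* was called in 0 of the 6 DESeq2 fits with 1 library left out. In the fit without mock control 3 its DESeq2 adjusted p was 0.0157, with a size below 1. Voom with sample quality weights gave −0.76 with an adjusted p of 0.0267.

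Fibrinogen is built from 3 chains, and the values of their genes were unlike. *fga* had 144, 143 and 295 CPM in the crispants and 235, 187 and 391 CPM in mock control, a log2 fold change of −0.48 (SE 0.38), or −0.10 without mock control 3. *fgb* had 127, 124 and 217 CPM in the crispants and 112, 133 and 205 CPM in mock control, at 0.06 (SE 0.31), or 0.37 without mock control 3. *fgg* (ENSDARG00000037281) had 51.2, 50.1 and 70.1 CPM in the crispants and 107, 64.1 and 173 CPM in mock control, at −1.01 (SE 0.35, edgeR adjusted p = 0.751). Of the 3 chains only *fgg* was past 1 in size, which it was not without mock control 3 (−0.57), and its groups overlapped by 1 library pair, crispant 3 and mock control 2. Its share of the FPKM of the 3 chains was 19.5%, 19.4% and 15.1% in the crispants, against 29.4%, 20.7% and 27.9% in mock control. *f2*, which encodes prothrombin, had 171, 148 and 159 CPM in the crispants and 128, 123 and 227 CPM in mock control, with equal means of 159 CPM. Without mock control 3 its log2 fold change was 0.37. DESeq2 called *fgg* in 1 of 6 fits with 1 library left out, the one without mock control 2.

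**Figure D4:**
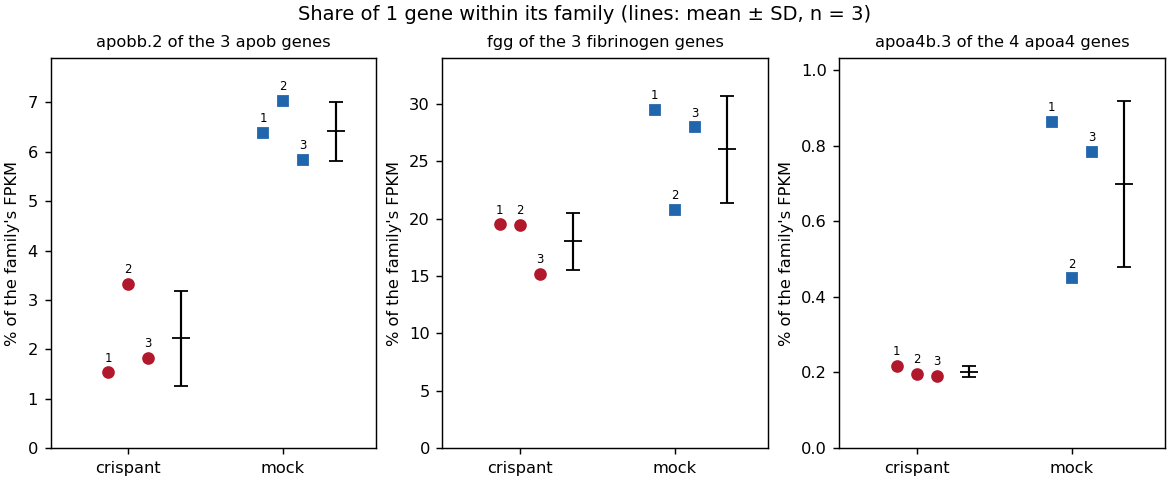
Share of 1 gene in the summed FPKM of its family, in percent, for each library, with lines at the mean ± SD of the 3 crispants (left) and 3 mock controls (right). In all 3 panels the crispants lie below the mock controls, for *apobb.2* at 1.53% to 3.32% against 5.83% to 7.03%, and for *fgg* at 15.1% to 19.5% against 20.7% to 29.4%.

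Of the plasma carriers, 4 of 5 passed the filter and all 4 had log2 fold changes below 0, with a median of −0.80. Without mock control 3, 1 was above 0 and 3 below, with a median of −0.41. *rbp4* (ENSDARG00000101199, chromosome 12, 5080972 to 5085382, minus strand), the retinol carrier, had 73.3, 161 and 142 CPM in the crispants and 247, 199 and 650 CPM in mock control. The groups did not overlap, and mock control 3 was far above the others. The log2 fold change was −1.55 (SE 0.49, edgeR adjusted p = 0.691), and −0.82 without mock control 3 (edgeR adjusted p = 0.347), so that 1 library set a large part of its size as well. DESeq2 gave an adjusted p of 0.14 and called *rbp4* in 1 of 6 fits with 1 library left out, the one without mock control 2. *rbp4* overlaps *cep55l* on the opposite strand, and the counting was not stated to use strand.

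*tfa*, transferrin, the iron carrier, had 1597, 2049 and 1554 CPM in the crispants and 1461, 1889 and 2584 CPM in mock control, a log2 fold change of −0.19 (SE 0.30), or 0.06 without mock control 3. *cp*, the copper carrier ceruloplasmin, had 41.1, 38.1 and 41.1 CPM in the crispants and 49.5, 35.1 and 83.2 CPM in mock control, at −0.48 (SE 0.31), or −0.06 without mock control 3. *hpx*, the haem carrier hemopexin, had 0.353, 0.55 and 0.898 CPM in the crispants and 1.69, 0.391 and 1.86 CPM in mock control, at −1.12 (SE 0.68). None of the 3 differed beyond the spread between libraries.

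In the lipid transfer group the direction was mixed. *mtp* (ENSDARG00000008637, chromosome 1, 11419101 to 11439741, minus strand), which loads lipid onto apolipoprotein B, had 81.0, 65.6 and 62.1 CPM in the crispants and 52.9, 59.9 and 42.3 CPM in mock control. Among the 37 members tested it was the only one with every crispant above every mock control library, at 69.6 ± 10.05 CPM in the crispants and 51.7 ± 8.90 CPM in mock control (SD, n = 3 each). Its log2 fold change was 0.43 (SE 0.21, edgeR adjusted p = 0.978), and 0.32 without mock control 3. *fabp1b.1*, an intestinal and yolk syncytial layer fatty acid binding protein, had 302, 270 and 175 CPM in the crispants and 176, 278 and 550 CPM in mock control, at −0.43, or 0.14 without mock control 3. *fabp10a* had 16, 27 and 2 counts in the crispants and 52, 5 and 13 counts in mock control, a spread within each group that left no difference to be read at this depth.

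Gene length separated the members in mock control 3. For each member, the log2 CPM of a library was set against the mean of the other 5 libraries, and in mock control 3 the median difference was 1.26 over the 18 members shorter than the median length of 2070 bases and 0.61 over the 19 others. Its median over the 37 members was 0.78, beside 0.01 over all genes, while the 5 other libraries had member medians between −0.27 and −0.04. Spearman's correlation of that difference with gene length, a description across genes that share 1 library, was −0.62 over the 37 members and −0.33 over 20812 genes. In the other libraries the correlation over the members ran from −0.23 to 0.49. With each library's trend on gene length removed, 30 of the 37 members were still below 0 and their median was −0.39. The part of length in the member values of mock control 3 was not tested further.

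**Figure D5:**
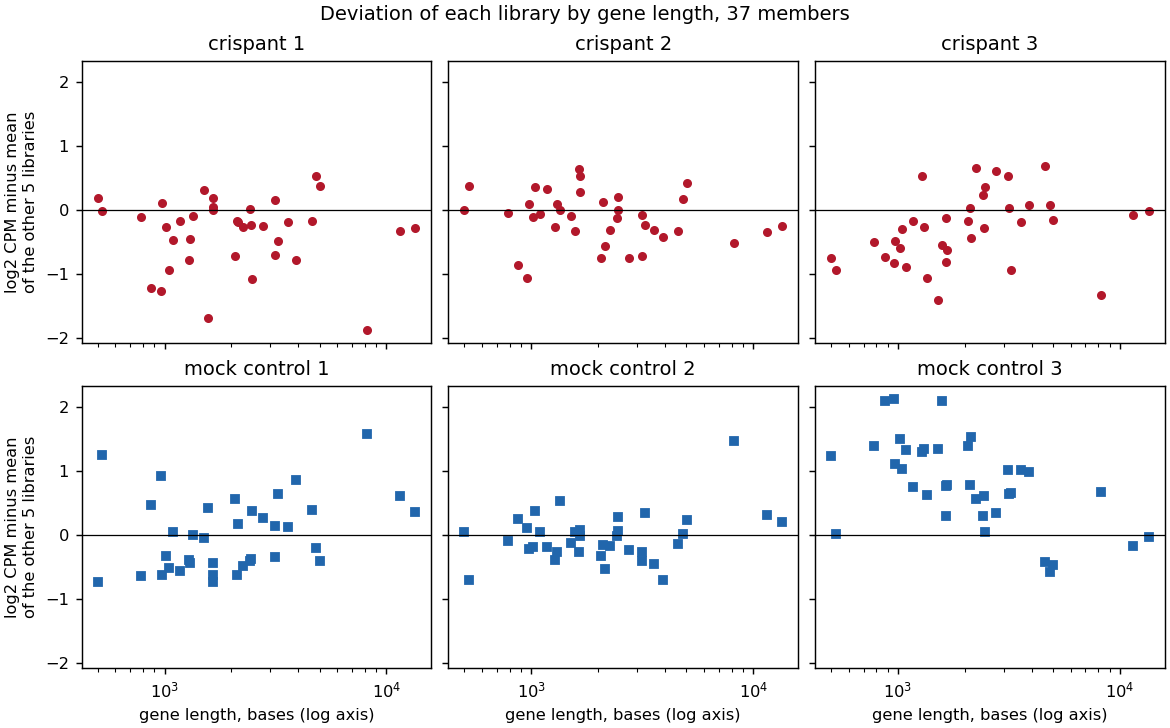
For each library, the log2 CPM of each of the 37 members minus the mean of the other 5 libraries, against gene length in bases on a log axis; upper panels are the crispants and lower panels the mock controls. In mock control 3 short members lie highest, with a Spearman's correlation of −0.62, and its median over the members is 0.78.

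Markers of the cells that make these proteins, and of others, were read beside these values. Of 5 yolk syncytial layer markers, 4 passed the filter, with a median log2 fold change of 0.50. Of these, 3 (*hnf4a*, *gata5* and *gata6*) were above 0, and *slc40a1* was below at −0.19 (SE 0.22). Their summed level was 209 to 225 CPM in the crispants and 179 to 209 CPM in mock control. Of that sum *slc40a1* supplied 86.2 to 110 CPM in the crispants and 85.7 to 134 CPM in mock control. The listed factor *mxtx2* was near 0 in every library, with 1 to 9 counts. The hepatoblast and liver markers, 3 of which are members, summed to 1675 to 2168 CPM in the crispants and 1578 to 2725 CPM in mock control. Most of this sum was the member *tfa*, at 1554 to 2049 CPM in the crispants and 1461 to 2584 CPM in mock control. Of the 7 tested genes of this list, 3 were above 0 and 4 below, with a median of −0.19. Without mock control 3, 4 were above 0 and 3 below, with a median of 0.03. The liver marker *fabp10a* was near 0. The labelled tissue is the whole embryo. In it the listed markers *mxtx2* and *fabp10a* were both near 0, while others of the same lists were not. Beside *slc40a1* and *tfa*, *gata6* had 49.3, 53.2 and 63.0 CPM in the crispants and 39.5, 38.6 and 47.9 CPM in mock control. The presence or amount of either tissue was not read from these markers.

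The erythroid list of 7 names gave 7 rows, as *hbae1.1* was not found and *hbbe1.1* had 2 rows with overlapping intervals. All 7 rows were tested and below 0, with a median of −1.18, or −0.30 without mock control 3. The list summed to 840, 824 and 1813 CPM in the crispants and 1759, 1043 and 5565 CPM in mock control. It was highest in mock control 3, the library in which the short apolipoproteins were also highest. The exocrine pancreas list, with 3 of 6 tested, summed to 3.15 to 6.14 CPM in the crispants and 5.21 to 18.1 CPM in mock control, with a median of −0.96, or −0.32 without mock control 3. The macrophage list summed to 14.9 to 17.3 CPM in the crispants and 19.7 to 28.1 CPM in mock control, with 2 of 5 tested genes above 0 and a median of −0.66, or −0.23 without mock control 3. The part of these cells in the member values was not tested.

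Other genes of the lipoprotein pathway were read from a list of 35 genes for assembly, remodelling and receptors, which also holds the member *mtp*, and 31 entries were tested. Of these, 20 were above 0 and 11 below, with a median log2 fold change of 0.17, and edgeR called 0. With all 6 libraries the groups did not overlap in 5 that were higher and 4 that were lower in the crispants, where 6.5% and 5.44% of all genes did so. In the fit without mock control 3, 16 were above 0 and 16 below, with a median of 0.03, and the groups did not overlap in 9 that were higher and 5 that were lower, where 15.1% and 14.3% of all genes did so.

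*soat2* (ENSDARG00000059824, chromosome 6, 58742937 to 58770441, minus strand), which esterifies cholesterol for packing into apolipoprotein B particles, had a difference of about the size of that in *apobb.2*. It had 1.85, 3.42 and 1.77 CPM in the crispants and 11.2, 11.0 and 9.31 CPM in mock control. The log2 fold change was −2.16 (SE 0.36, edgeR adjusted p = 0.258), −2.23 without mock control 3, and DESeq2 called it with all libraries (adjusted p = 4.32e-06) and in 6 of 6 fits with 1 library left out. In a pair of receptors on the list every crispant was above every mock control library. *scarb1*, the high density lipoprotein receptor, had 42.5, 32.7 and 33.0 CPM in the crispants and 19.9, 24.5 and 23.2 CPM in mock control (log2 fold change 0.68, SE 0.21, edgeR adjusted p = 0.689). *stab2*, a scavenger receptor of endothelium, had 118, 114 and 152 CPM in the crispants and 76.5, 90.2 and 79.2 CPM in mock control (0.64, SE 0.20, edgeR adjusted p = 0.682).

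Of the 15 yolk and lysosome proteases, all tested, 9 were above 0 and 6 below, with a median of 0.27, and edgeR called 0. Leaving out mock control 3, 11 were above 0 and 4 below, with a median of 0.49. *ctsc*, cathepsin C, which activates other proteases by trimming them, had 249, 293 and 370 CPM in the crispants and 58.3, 148 and 101 CPM in mock control. In edgeR it gave a log2 fold change of 1.57 (SE 0.35, edgeR adjusted p = 0.479), and DESeq2 called it (adjusted p = 0.0108) with all libraries and in 3 of 6 fits with 1 library left out, those without a mock control library. *tpp1*, a lysosomal tripeptidyl peptidase, had 77.2, 87.5 and 92.4 CPM in the crispants and 51.6, 56.4 and 56.4 CPM in mock control, at 0.65 (SE 0.18). *ctsh*, cathepsin H, had 165, 128 and 76.7 CPM in the crispants and 49.0, 89.0 and 74.3 CPM in mock control, at 0.80 (SE 0.33), with overlapping groups.

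Of the liver and yolk nuclear factors, 23 entries were found and 20 tested, 12 above 0 and 8 below, with a median of 0.14, and edgeR called 0. Without mock control 3, 14 were above 0 and 6 below, at the same median of 0.14. *hnf4a*, a nuclear receptor that drives apolipoprotein genes in liver and yolk syncytial layer, had 23.4, 17.2 and 24.1 CPM in the crispants and 12.1, 9.67 and 11.0 CPM in mock control. Its log2 fold change was 0.98 (SE 0.25, edgeR adjusted p = 0.542; DESeq2 adjusted p = 0.0325, below the minimum fold change). *gata5*, a factor of endoderm and yolk syncytial layer, had 41.5, 50.6 and 44.8 CPM in the crispants and 23.0, 33.1 and 34.1 CPM in mock control, at 0.60 (SE 0.22). *cebpb*, a factor of liver and the acute phase response, had 94.1, 222 and 140 CPM in the crispants and 42.7, 83.6 and 85.0 CPM in mock control, at 1.11 (SE 0.37). These 3 were named because their p was the smallest in the list. In all 3 every crispant was above every mock control library, and none passed the edgeR test. Over the 20 tested, the groups did not overlap in 6 that were higher and 1 that was lower. Of all genes, 6.5% and 5.44% did so. Without mock control 3 the numbers were 7 higher and 4 lower, where 15.1% and 14.3% of all genes did so.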

How the data were processed

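RNA of 3 crispant and 3 mock control libraries was polyA-selected and sequenced as a strand-specific library. Per the labels and methods, the authors aligned reads with HISAT2 to zebrafish genome build GRCz10 (danRer10) and compared groups with DESeq2; versions, annotation release and the counting tool were not given in the sources used here. The deposited table holds gene counts, which the authors did not normalise, and FPKM, which were found to equal counts per length and library total scaled by size factors. The normalised signal per library and the authors' log2 fold changes and p-values, also deposited, were not used as results.

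Counts of all 31953 genes were tested in R 4.3.3 with edgeR 4.0.16 (quasi-likelihood test, TMM, filterByExpr with a minimum count of 10). The 20812 genes that passed the filter were called when p, adjusted by Benjamini-Hochberg over all of them, did not exceed 0.05 and the log2 fold change was 1 or more in size. SE was derived from the fold change and the F statistic. DESeq2 1.42.0 and limma-voom 3.58.1 were alternatives, with TMM against size factors, no filter, a mean count of at least 10, a replicate block, no minimum fold change, names in either case and each library left out. Removal of the length trend and voom with sample quality weights were added after the data were seen. Scripts were tested on simulated data.

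In each role group, the 4 tested members with the highest mean CPM were named, with the 5 of smallest p and the 5 of largest fold change among those with at least 50 counts on average, and the 3 list genes of smallest p per list. Members and lists were chosen with earlier results of these data known. No 2 libraries held identical values. Depth limits low counts: 3 counts corresponded to 0.0728 to 0.105 CPM, for counting error only.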

Additional observations from a re-analysis of the deposited data

How the results depend on the processing

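The number of genes called over all genes was 0 in edgeR, and also 0 with size factors, with a mean count filter, in limma-voom and with no minimum fold change. It was 2 without a filter, 160 in DESeq2, 2 with the length trend removed and 324 in voom with sample quality weights, the last 2 added after the data were seen. With 1 library left out it was between 0 and 20, the highest without mock control 3. Members called numbered 3 in DESeq2, 3 with sample quality weights and 0 to 1 in edgeR with a library left out. In DESeq2 with a library left out they numbered 1 to 5, in fits that called 53 to 300 of all genes. The 5 (with *fgg* and *rbp4*) came without mock control 2, where 212 of 21361 genes were called. List genes called numbered 2 in DESeq2 and 2 with sample quality weights. The members' median log2 fold change of −0.44 was −0.33 without a filter, −0.0877 with sample quality weights, and −0.56 to −0.0392 with a library left out. The difference in FPKM share of 0.101 points was −0.087 to 0.33 with a library left out. Over all genes tested, same-numbered libraries did not deviate together (correlations of 0.24, −0.08 and −0.17), so the numbers were not taken as pairs. Single genes differed from this. *fga*, *fgb*, *hbae3*, *slc4a1a* and *alas2* were highest in replicate 3 of both groups. *ctsba* had 0 counts in replicate 3 of both groups and in no other library, so the correlations do not settle whether libraries were paired. With the replicate block the SE was 0.21 against 0.38 in *fga* and 0.25 against 0.35 in *fgg*, but 0.43 against 0.31 in *apobb.1*. The block gave 0 calls and a member median of −0.35. Whether the libraries were made in pairs was not given in the sources used here.

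Of 476 values of 34 named genes under alternatives, 432 kept direction and side of the threshold, 11 newly passed it, 21 reversed with a library left out and 12 otherwise. Those 12 were, with sample quality weights 0.14 in *apoa1b*, 0.24 in *apoa1a*, 0.11 in *apoeb*, −0.10 in *vtg1*, 0.0453 in *serpina1l*, 0.0668 in *serpina1*, 0.0809 in *cp*, 0.0914 in *fabp1b.1* and 0.69 in *fabp10a*; with the length trend removed 0.0525 in *apoa1b* and −0.0559 in *f2*; and with the block 0.0020 in *apoa1b*. With a library left out, *apoa1b* ran from −0.28 to 0.33, *apoa1a* from −0.54 to 0.29, *apoeb* from −0.32 to 0.32, *vtg1* from −0.46 to 0.77, *serpina1l* from −0.42 to 0.13, *serpina1* from −0.38 to 0.22, *serpinc1* from −0.0841 to 0.23, *f2* from −0.15 to 0.37, *fgb* from −0.26 to 0.37, *tfa* from −0.37 to 0.0614, *fabp1b.1* from −0.73 to 0.14 and *fabp10a* from −1.46 to 0.42. The cause was not tested.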

Other observations

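*ctsba*, cathepsin B, a lysosomal protease on the protease list, had 14719, 16079 and 0 counts in the crispants and 8661, 16337 and 0 counts in mock control. It was listed at 0 in crispant 3 and mock control 3 but not in the other 4 libraries, so its fold change was not read. The gene was picked once its values were known.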
